A study of Rattus norvegicus with 6 samples.

Results

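The regions with excess input are the promoter-array regions on which unenriched genomic DNA from rat lumbar spinal cord gave the brightest signal. They were selected on the measured input alone. The input signal of each probe was set, on a log2 scale, against the median of all probes of the same length on the same array. Probes under 1000 bp apart were merged into regions, and regions of 3 to 99 probes on chromosomes 1 to 20 were ranked by their mean over all probes and then over the 6 arrays. The 300 highest of 15284 such regions, 1.96%, are the members, and they hold 2497 of the 172669 probes of the array. A working name called them likely multi-copy sequence. Copies were not counted in these data, so the regions are called here by the rule that chose them.

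Methylated DNA immunoprecipitation (MeDIP) uses an antibody against 5-methylcytosine to pull down methylated fragments of sheared genomic DNA, and CpG-rich methylated fragments are pulled down best. The part set aside before the pulldown, the input, is hybridised beside it as a reference. An input signal depends on how much of a sequence the genome holds, and also on base composition, probe affinity and labelling. Sequence present in many copies, such as segmental duplications, satellite repeats and tandemly duplicated gene families, sends more fragments to a probe than single-copy sequence, and genome builds often hold such copies collapsed or misplaced.

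The study set 3 male rats with a sham operation against 3 male rats with chronic constriction injury (CCI), a nerve ligation that is a standard model of neuropathic pain, each rat on 1 array. All 6 rats weighed 220-250 g by the labels, and tissue was taken on day 14 after surgery. Each array carried the Cy5-labelled immunoprecipitated DNA (IP) and the Cy3-labelled input of the same animal, with no dye swap, so a dye effect and enrichment cannot be told apart in a ratio. No strain, age or genotype was given, the cord was sampled whole, and DNA carries no cell type marker by which the tissue label could be checked.

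Array values below are of 3 kinds. The input level and the IP level are log2 signals relative to the array's median for probes of the same length, so that 0 is a typical probe. The ratio is log2 of IP over input, centred on each array's median and not corrected for probe length. Fewer input probes than IP probes were well above background, with 62156 to 119460 probes in the input and 122903 to 128085 in the IP. Among member probes the input was above background for 74.4% to 93.2% of probes and the IP for 86.9% to 88.3%. Scan 1 held the 3 sham rats and CCI 3, and scan 2 held CCI 1 and CCI 2. The number of arrays limits the precision of every value. The X chromosome, which a male carries in a single copy, gives a rough scale for the input. Its median probe lay at -0.29 ± 0.27 (SD, n = 6 arrays), between -0.55 and -0.0043 on single arrays. This value is over single probes and not over region means.

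The input of the members ran from a threshold of 1.65, which is 3.14-fold over a typical probe, to 4.82, which is 28.3-fold. This measure chose the members and is given as a description. In the input, 62156, 64063 and 75955 of 172669 probes were well above background on Sham 1, CCI 3 and CCI 1. A typical probe was thus itself dim on these arrays. The folds are over that dim level and do not count copies. The 3 lowest members were chr1:82332511-82334283, chr3:158164433-158166068 and chr4:124563692-124565035, each at 1.65 in the build rn4. The 3 regions just outside were chr8:114189351-114190863 at 1.65, chr3:156071208-156072928 at 1.64 and chr4:104910248-104911968 at 1.64. The boundary therefore falls in a continuous range and separates no class of its own. In 8 members a probe carried an outlier flag on some array. The ranking keeps those spots. The levels and ratios of regions below leave such a probe out on every array, after which 5 members fell below the threshold, the lowest at 0.49. Shares of probes or spots and the spread over probes keep it.

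Within most members the excess lay on some probes and not on others. The median member had 66.7% of its probes over an input level of 1, against 27.3% in the median of all 15284 regions. In 29 members every probe was over 1, and in 22 members fewer than 50% were. The last region inside the threshold, chr4:124563692-124565035, shows the uneven kind. Its 7 probes, in order along the chromosome, had input levels of 0.08, -0.39, 1.87, 2.503, 3.61, 2.80 and 1.09. The region with the highest input, chr15:5597810-5599249, shows the even kind. Its 5 probes had input levels of 5.29, 4.55, 4.91, 4.55 and 4.82. The median standard deviation over the probes of a member was 2.00, 1.63 over all regions and 2.12 over the 300 regions that followed in the ranking by input, called the next 300 below. Members also held more probes of the shortest length on the array, 45 nt, with a median share of 68.3% against 54.5% in all regions and 63.6% in the next 300. They did not stand out in size: the median member had 9 probes over 1615 bp, and the median region 10 probes over 1664 bp.

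The IP channel was not used by the rule. The median member had an IP level of 1.36, against 0.10 in all regions and 1.14 in the next 300. The IP was above 0 in 282 of the 300 members and above 1 in 227, a level reached by 1552 of all 15284 regions. Across all regions input and IP levels went together, with Pearson's r = 0.72 over 15284 regions. The regions share the 6 arrays, and the 2 channels of a region share its probes and their base composition. Across the 300 members, which were cut off on the input, r was -0.27. Over the 261 members whose IP was not more than 1.5 below the input it was 0.44, a cut made on these same values. The ratio contains the input that chose the members, so its low level is a description: the median member stood at -0.30, all regions at -0.12 and the next 300 at -0.14.

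In bands of rising input the median IP was lowest in the highest band. The 190 members with an input of up to 2 had a median IP of 1.35. The 71 members between 2 and 2.5 had a median IP of 1.46, the 20 between 2.5 and 3 one of 1.34, and the 19 over 3 one of 0.41. In the last band the median ratio was -4.72, and in the median region every probe, 100%, was over 1 in input. That band was mixed: 11 of the 19 came from the chromosome 15 stretch described below, with IP levels from -1.44 to 1.31, and the other 8 had IP levels from 0.69 to 3.19, the highest of any member. The bands use the input as ranked. An IP level more than 1.5 below the input, on the same length-corrected scale, was found in 39 members and in 96 of all 15284 regions.

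**Figure D1:**
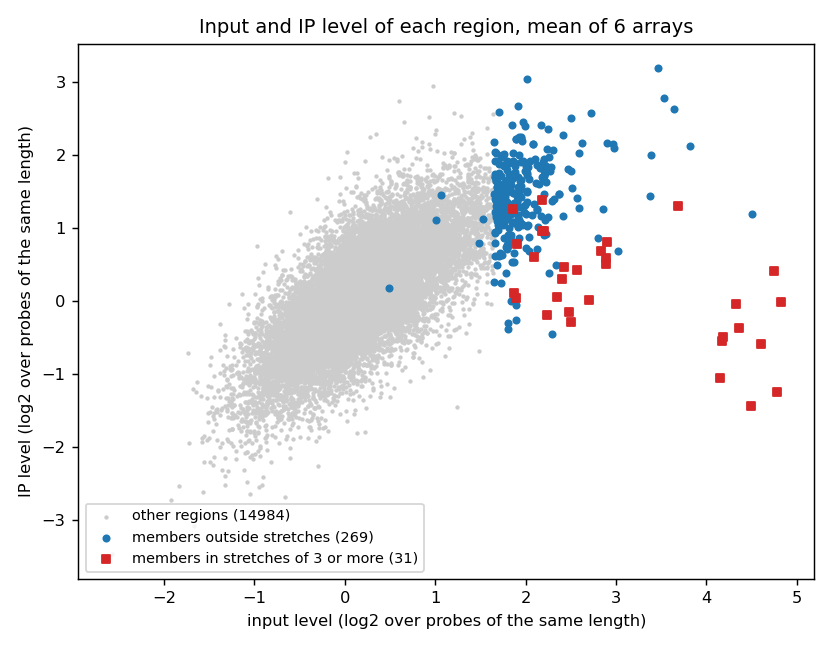
Input level (horizontal) against IP level (vertical) of each region, both as log2 over probes of the same length and as the mean of 6 arrays, with other regions in grey, the 269 members outside stretches in blue and the 31 members in stretches of 3 or more consecutive members in red. Most members continue the grey cloud to the upper right, while the red points with the highest input lie at IP levels between -1.44 and 1.31; the 5 blue points left of 1.65 are members that lost outlier spots.

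Members were spread over all 20 autosomes, but unevenly. Chromosome 12 had the largest share, 18 of 428 regions or 4.21%, followed by chromosome 7 with 35 of 1044 or 3.35% and chromosome 15 with 15 of 475 or 3.16%. Chromosome 1 held the most members, 49 of 2201. The smallest shares were on chromosome 2, 8 of 965 or 0.83%, and chromosome 8, 9 of 940 or 0.96%. Near the start of the chromosomes members were more frequent: 13 members, or 4.33%, began within the first 2 Mb, against 237 of all regions, or 1.55%. These 13 lay on chromosomes 1, 4, 6, 9, 14, 19 and 20, and 8 of them belong to the groups on chromosomes 1 and 9 described below. Outside the ranked chromosomes, 9 of 99 regions on unplaced sequence and 2 of 551 regions on the X chromosome exceeded the threshold.

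**Figure D2:**
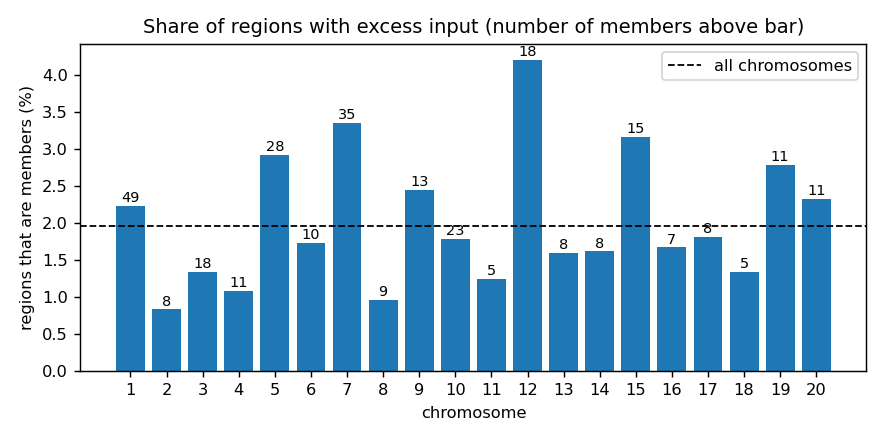
Percentage of the ranked regions on each chromosome that are members (bars, from 0), with the number of members above each bar and the share over all chromosomes, 1.96%, as a dashed line. Chromosomes 12, 7 and 15 stand highest at 4.21%, 3.35% and 3.16%, and chromosomes 2 and 8 lowest at 0.83% and 0.96%.

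Members no more than 1 Mb from the next member were joined into runs. There were 198 runs: 149 members stood alone, and 151 fell into 49 runs of 2 or more. Most runs were interspersed with regions of ordinary input. In 8 runs, with 33 members, no other ranked region lay in between. Members had as many neighbours as other regions, with a median of 11 regions within 500 kb in both sets.

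Consecutive members, with no other ranked region between them, formed 13 stretches of 2 or more with 47 members. The 5 stretches of 3 or more, on chromosomes 15, 5, 1, 20 and 9, held 31 members, and they differed from the other 269 members in several measures. Their median IP was 0.10, against 1.44 in the other members. Their median ratio was -3.05, against -0.23. Every probe was over 1 in input in 20 of the 31, against 9 of the 269. The shortest probes made up 28.6% of the median region, against 71.4%. An IP more than 1.5 below the input was found in 25 of the 31, and in 14 of the 269. Stretches were recognised from the ranking by input, and these contrasts are descriptions.

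The longest stretch lay on chr15:4856408-6289973, 1434 kb in which all 12 ranked regions were members. It held 9 of the 10 highest inputs of the whole set. Over its 83 probes, 97.6% were over 1 in input. Its mean input was 3.86, 4.06 and 4.32 in the 3 sham rats and 3.91, 4.44 and 4.68 in the 3 CCI rats. Its mean IP was -0.39, -0.43 and -0.31 in sham and -0.27, -0.17 and 0.00 in CCI. The input was thus far above that of a typical probe in every animal and the mean IP was not, with 67.5% of IP spots above background. The mean ratio of the stretch was -4.71 ± 0.27 over the sham rats and -4.74 ± 0.29 over the CCI rats (SD, n = 3 each).

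Along the chromosome 15 stretch the input rose over the first regions and then stayed high. The nearest region before it, 65.6 kb away, had an input of 1.27 and an IP of 1.105. The first member, chr15:4856408-4858090, had an input of 2.21, an IP of 0.96 and a ratio of -0.78, and it was the only one of the 12 whose IP was not more than 1.5 below its input. The next 11 had inputs between 3.68 and 4.82. The nearest region after the stretch, 645 kb away, had an input of 0.46 and an IP of -0.03. One member inside it also kept a higher IP: chr15:5672589-5674071, with 9 probes, had an input of 3.68, an IP of 1.31 and a ratio of -1.98. These members at the edge and inside were singled out after their values were seen.

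The IP of the 12 members ranged from -1.44 to 1.31. The region with the highest input, chr15:5597810-5599249, stood at 4.23, 4.71 and 4.88 in sham and 4.66, 5.24 and 5.22 in CCI. Its IP was -0.30, -0.10 and 0.04 in sham and 0.04, 0.05 and 0.16 in CCI. The groups overlapped in both. Of its IP spots 20% were well above background, so its IP and its ratio of -6.17 rest largely on dim spots and are bounds from above. One of its 5 probes had an IP of 1.84, and the other 4 lay between -1.07 and 0.03.

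The lowest IP of all members was that of chr15:6288257-6289973, the last region of the stretch. It measured -1.60, -1.70 and -1.48 in sham and -1.42, -1.40 and -1.04 in CCI, with inputs of 4.06, 4.39 and 4.67 in sham and 4.17, 4.69 and 4.999 in CCI. It was followed by chr15:5856423-5857937 at a mean IP of -1.25, chr15:5178793-5180348 at -1.06, chr15:5294159-5295707 at -0.59 and chr15:4980989-4982562 at -0.55. All 5 regions of lowest IP thus came from this stretch. The other members among its highest inputs were chr15:5550212-5551768 at 4.75, chr15:5780934-5782507 at 4.36, chr15:5825340-5826910 at 4.33 and chr15:6010001-6011547 at 4.18.

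The stretch on chr5:78091824-78823746 spanned 732 kb and 8 consecutive members. Its mean input was 2.36, 2.70 and 2.59 in sham and 2.51, 2.63 and 2.83 in CCI. Its mean IP was 0.20, 0.18 and 0.22 in sham and 0.24, 0.21 and 0.32 in CCI. Its single regions had inputs between 2.23 and 2.89 and IP levels between -0.29 and 0.69, and in all 8 the IP was more than 1.5 below the input. The nearest region before, 38.0 kb away, had an input of 0.22 and the nearest after, 328 kb away, one of 0.44. Over the 74 probes 94.6% were over 1 in input, and the IP was above background in 79.1%, so the low ratio, -2.66 ± 0.27 in sham and -2.74 ± 0.16 in CCI (SD, n = 3 each), is mostly a measured one.

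The stretch on chr1:266512-1150834 began with the first ranked region of the chromosome and held 4 members. Its mean input was 1.82, 2.37 and 2.44 in sham and 2.20, 2.45 and 2.24 in CCI. Its mean IP was 0.56, 0.55 and 0.59 in sham and 0.56, 0.53 and 0.53 in CCI. Sham 1 was lowest in input and the groups overlapped in both channels. It has no probe of 45 nt, and the IP was above background in 29.6% of its spots, so its ratio of -3.33, which is not corrected for probe length, is a bound. One region after the stretch, at an input of 1.32, was not a member, and the next one, chr1:1285827-1287460, was, with an input of 1.80 and an IP of -0.30. With it the run chr1:266512-1287460 held 5 members among 6 regions.

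The stretch on chr9:833612-1169128 held 3 members over 336 kb, also near the start of its chromosome. Its mean input was 1.93, 2.56 and 2.37 in sham and 2.38, 2.86 and 2.45 in CCI. Its mean IP was 0.23, 0.22 and 0.22 in sham and 0.24, 0.23 and 0.24 in CCI. The IP was above background in 59.7% of spots, so its level rests partly on dim spots. The input ranged over 0.93 between rats and the IP over 0.02. The nearest regions, 347 kb away on either side, had inputs of 0.63 and IP levels of 1.25 and 1.26. On these length-corrected levels the order of the 2 channels was reversed, while the ratios of the 2 regions, not corrected for length, were -0.32 and -0.98.

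The stretch on chr20:4966949-5057204 was of another kind. Its 4 members lay within 90.3 kb and were made mostly of short probes, 82.6% of them 45 nt. Its mean input was 2.07, 1.80 and 2.23 in sham and 1.99, 1.68 and 2.29 in CCI. Its mean IP was 0.88, 0.86 and 0.86 in sham and 0.90, 0.88 and 1.00 in CCI. Both channels were thus high, the IP was above background in 95.7% of spots, and in none of the 4 was it more than 1.5 below the input. The sham rats had a mean ratio of -0.79 ± 0.22 and the CCI rats one of -0.69 ± 0.17 (SD, n = 3 each). A region 1.69 kb before the first member had an input of -0.04. The run around it, chr20:4966949-5728514, held 5 members among 23 regions.

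**Figure D3:**
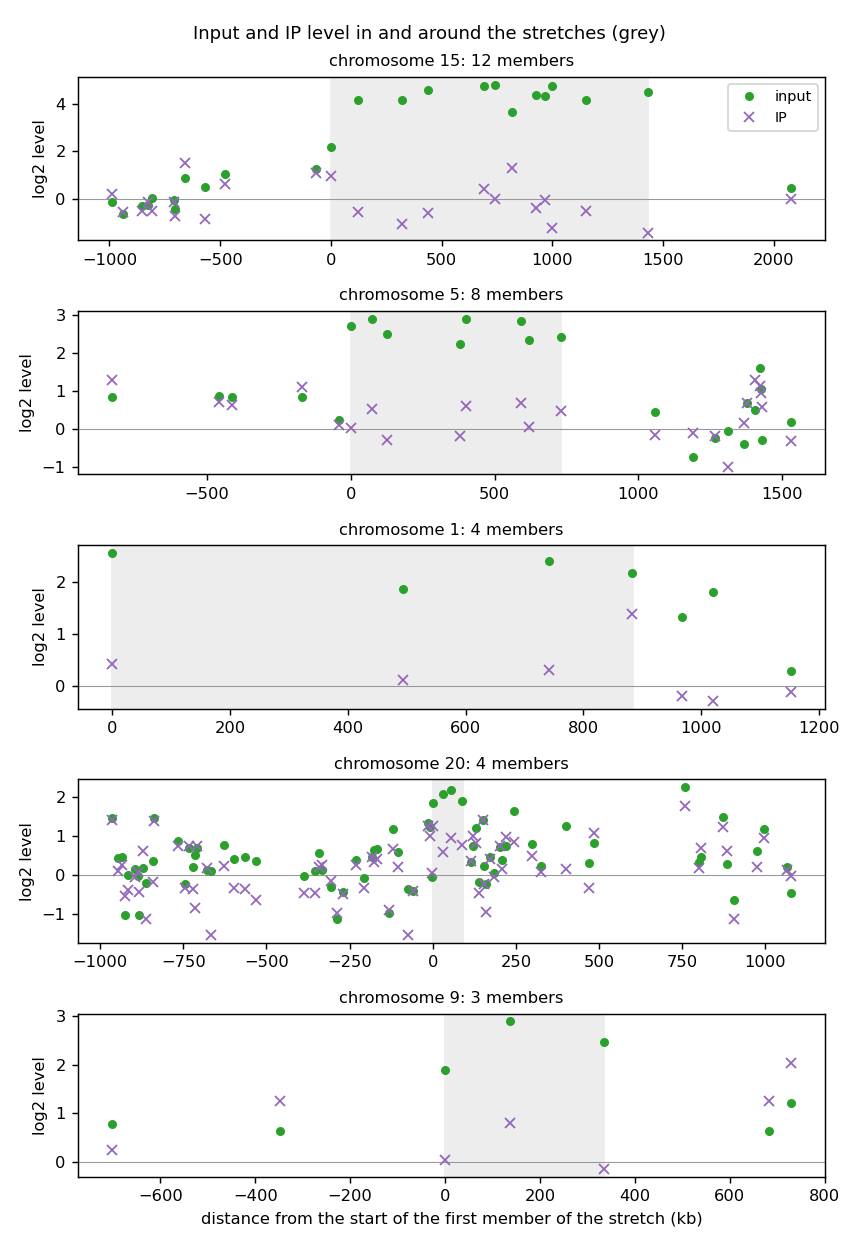
Input level (green dots) and IP level (violet crosses) of every ranked region in and around the 5 stretches of 3 or more consecutive members, plotted against distance in kb from the start of the first member, with the stretch shaded grey; each point is the mean of 6 arrays on a log2 scale. On chromosomes 15, 5 and 9 the input stands far above the IP inside the shaded span, with means of 4.21 and -0.26, 2.60 and 0.23, and 2.42 and 0.23; on chromosome 20 they part less, with 2.01 and 0.90.

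Pairs of neighbouring members showed both kinds. On chr18:16237958-16244084 the mean input was 4.16, the IP 1.66 and the ratio -2.42. Its second region, chr18:16240587-16244084, was the highest input outside chromosome 15, at 4.42, 4.60 and 4.59 in sham and 4.33, 4.44 and 4.63 in CCI. The inputs of the groups overlapped. Every probe of both regions was over 1 in input, and every IP spot was above background. On chr7:18613651-18855647 the mean input was 2.30, the IP 0.23 and the ratio -2.72. In contrast, the pair on chr13:12146778-12342269 had an input of 2.53 and an IP of 1.96, and the pair on chr1:204721548-204901411 one of 2.40 and an IP of 1.54. The pairs other than that of the highest input were singled out after their values were seen.

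The 14 members of low IP outside the longer stretches were both regions of the chromosome 18 pair, both of the chromosome 7 pair, chr1:1285827-1287460 and 9 others. They were listed after their values were seen. Among the others, chr1:48250929-48252632 had an input of 3.02, an IP of 0.69 and a ratio of -3.21. At chr14:43691-45356, 100% of probes were over 1 in input, with an input of 2.34 and an IP of 0.49. The 14 had a median of 77.8% of probes over 1.

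High input together with high IP marked the largest interspersed run, chr7:9607040-10521528, where 9 of 44 regions over 914 kb were members. Its members had a mean input of 2.23, a mean IP of 1.61 and a mean ratio of -0.18. It held the highest IP of all members, chr7:10466534-10468105. The input there was 3.72, 3.36 and 3.32 in sham and 3.57, 3.56 and 3.23 in CCI. The IP was 3.18, 3.13 and 3.15 in sham and 3.21, 3.16 and 3.28 in CCI. Both channels were raised in every animal, and the ratio lay between -0.24 and 0.32. Its 4 probes had IP levels of 2.07, 3.05, 4.19 and 3.44. A second region of the run, chr7:10419189-10420963, had an input of 3.53 and an IP of 2.78, and all of its 10 probes were 45 nt long.

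The other members of highest IP were not clustered with each other. They were chr5:122030415-122031503 at an IP of 3.04 and an input of 2.01, chr20:7375685-7376734 at 2.67, and chr2:223839357-223841068 at 2.63 with an input of 3.64. Of the remaining runs among the 8 with the most members, chr10:108927122-110327939 had 4 members among 32 regions, with an input of 2.37 and an IP of 1.45. The run chr1:204721548-206649483 had 4 among 33, at 2.06 and 1.67. The run chr7:116531984-117913552 had 4 among 32, at 2.02 and 1.39. All 3 had mean ratios between -0.31 and -0.03.

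Between animals the input of a typical member was about as steady as that of other regions, and the IP was steadier than the input. The median SD over the 6 rats was 0.14 in input for members and 0.16 for all regions, and 0.04 in IP for both. In the 31 stretch members the median SD was 0.30 in input and 0.08 in IP. The chromosome 15 stretch varied by 0.83 in mean input between its lowest rat, Sham 1, and its highest, CCI 3, which is 1.77-fold. CCI 3 had the highest input in 11 of its 12 regions and in 8 of the 8 on chromosome 5, but in 0 of the 3 on chromosome 9, where CCI 2 was highest in all 3. CCI 3 also had the highest IP in all 12 regions on chromosome 15. On CCI 3, 64063 input probes were above background, the second-lowest number after the 62156 of Sham 1. The part of signal strength in these differences was not tested.

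**Figure D4:**
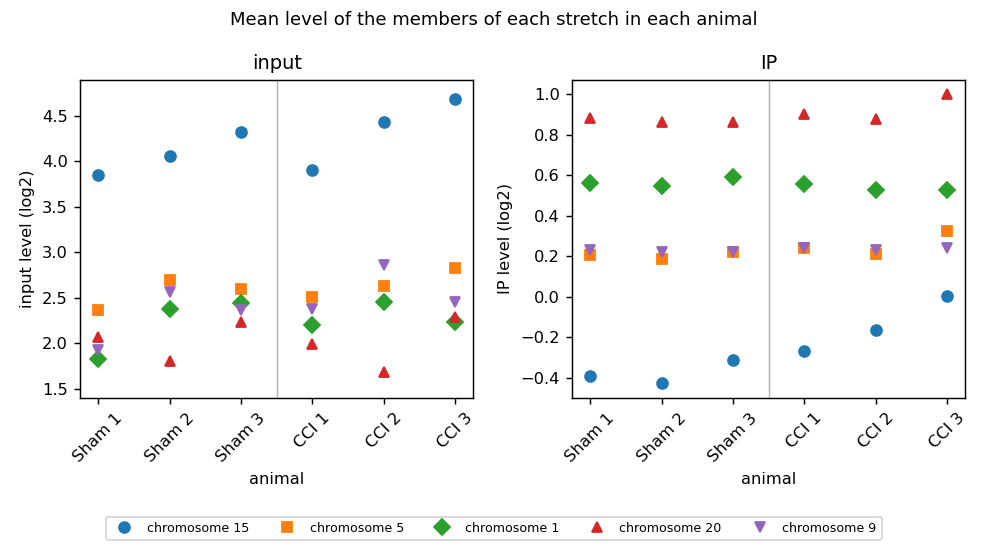
Mean input level (left) and mean IP level (right) of the members of each of the 5 stretches in each rat, on log2 scales that differ between the panels, with 1 point per stretch and rat and a vertical line between sham and CCI. On chromosome 15 input ranges from 3.86 in Sham 1 to 4.68 in CCI 3, and IP from -0.43 to 0.00.

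The members whose input varied most between rats were chr15:5550212-5551768, chr15:5294159-5295707 and chr12:2443733-2444451. The first measured 4.10, 4.54 and 4.95 in sham and 4.52, 5.10 and 5.27 in CCI, and the second 4.12, 4.37 and 4.78 in sham and 4.26, 4.87 and 5.22 in CCI. In both, the range within each group was wider than the difference between the group means. The third measured 1.88, 1.96 and 2.13 in sham and 1.06, 1.64 and 2.19 in CCI, with the lowest and the highest rat both in CCI. Its IP stayed between 1.86 and 1.94. An input range over 1 between rats was found in 7 members, 4 of them on chromosome 15, and in 344 of all 15284 regions.

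Whether injury changed these regions was asked of each channel by limma (lmFit and eBayes) across all 16023 regions of at least 3 probes. A region was called at a Benjamini-Hochberg adjusted p under 0.05. No region of the array was called in the ratio, the IP or the input, 0% in each, and so 0 of the 300 members. The lowest adjusted p of a member was 1.00 in the ratio, 0.302 in the IP and 1.00 in the input. With 3 rats against 3, an exact permutation test of a single region cannot go below 0.1. A p that misses the threshold does not show that the groups were alike.

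In the ratio, members leaned towards higher values in CCI. The difference was above 0 in 235 of 300 members, against 42.8% of all tested regions. An unadjusted p under 0.05 was found in 13 members, all higher in CCI, against 422 regions or 2.63% of the array, of which 82 were higher, 0.512%, and 340 lower, 2.12%. The groups did not overlap in 47 members that were higher in CCI, against 2.52% of the array, and in 2 that were lower, against 4.69%. The median difference was 0.09 in the members and -0.02 in all tested regions. The next 300 regions had a median of 0.06, with 217 above 0. The member medians by rat were -0.36, -0.35 and -0.31 in sham and -0.27, -0.28 and -0.20 in CCI. The ratio contains the input that chose the members. Their median difference was 0.03 in the IP and -0.07 in the input, so the leans in ratio and input are not separate results.

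The lean depended on how the signals were corrected. Normexp background correction gave a median of -0.023 for the members, with 26 members lower and 0 higher at an unadjusted p under 0.05. Loess gave a median of 0.020, and quantile normalisation 0.045 in members and 0.035 in all regions. Between CCI 3 and the 3 sham rats of the same scan the median was 0.16, and without CCI 3 it was 0.047. Stretch members did not share the lean: their median difference in ratio was -0.05, with 12 of 31 above 0, and that of the other 269 was 0.09, with 223 above 0. The 31 are neighbours within 5 stretches and are not separate results. By stretch mean the ratio differed by -0.04 on chromosome 15, -0.08 on 5, -0.01 on 1, 0.10 on 20 and -0.22 on 9.

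The IP was slightly higher in CCI in most members, 216 of 300, against 51.4% of the array. The next 300 regions had the same count, 216, so this lean was not particular to the members. An unadjusted p under 0.05 was found in 50 members higher in CCI, against 937 regions or 5.85% of the array, and in 3 lower, against 776 or 4.84%. The groups did not overlap in 69 members higher in CCI, against 9.34%, and in 6 lower, against 8.31%. Of the next 300, 53 were higher and 14 lower without overlap, and 38 were higher and 8 lower at an unadjusted p under 0.05. The median difference was 0.03 in members, 0.00 in all regions and 0.02 in the next 300. The shift rested in part on CCI 3: without that rat the member median was 0.013, with 177 of 300 above 0, 45 members higher and 11 lower at an unadjusted p under 0.05. Quantile normalisation gave a median of 0.010, and the median of probes 0.012, with 32 members higher and 12 lower. In the 31 stretch members the median difference was 0.08, with 26 above 0. Of them 11 were higher at an unadjusted p under 0.05 and 10 were higher without overlap, with 0 lower in either count. These neighbours are not separate results. By stretch mean the IP differed by 0.24 on chromosome 15, where the groups did not overlap. It differed by 0.06 on chromosome 5, -0.03 on 1, 0.06 on 20 and 0.01 on 9. Member medians by rat were 1.35, 1.33 and 1.36 in sham and 1.35, 1.35 and 1.41 in CCI, so the groups overlapped and CCI 3 was highest. With the scan as a block, when the contrast rests on CCI 3 against the 3 sham rats, limma called 90 regions, 6 of them members, and on scan 1 alone 38 regions, 5 of them members.

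The input, which is subtracted in the ratio, leaned the other way. Its difference was above 0 in 76 of 300 members, against 54.7% of the array and 83 of the next 300. An unadjusted p under 0.05 was found in 6 members lower in CCI, against 75 regions or 0.468% of the array, and in 0 higher, against 236 regions or 1.47%. This split turned around in other settings, with 10 higher and 1 lower without CCI 1. It was 8 and 7 with the replicate number as a block, and 7 and 3 with the scan as a block. After quantile normalisation it was 6 and 2, and without Sham 1 it was 4 and 2. It kept its direction at 0 and 9 with array medians, and at 0 and 4 without CCI 3. The median difference in members stayed below 0 without CCI 1 (-0.067) and without Sham 1 (-0.049). With the replicate block it was -0.069, and with the scan block -0.049. The groups did not overlap in 43 members lower in CCI, against 2.92%, and in 1 higher, against 3.4%. Of the next 300, 20 were lower and 4 higher without overlap. The median difference was -0.07 in members, 0.01 in all regions and -0.05 in the next 300. Member medians by rat were 2.00, 1.93 and 1.91 in sham and 1.88, 1.86 and 1.87 in CCI. These medians did not overlap between the groups, at 1.95 ± 0.05 and 1.87 ± 0.01 (SD, n = 3 each). The input also chose the members, by its mean over all 6 arrays, and these values are a description. After quantile normalisation of the input the median difference was 0.012 in members and 0.012 in all regions. Stretch members again went the other way, with a median of 0.17 and 25 of 31 above 0. Neighbouring regions of a stretch are not separate results. By stretch mean the input differed by 0.26 on chromosome 15, 0.10 on 5, 0.08 on 1, -0.05 on 20 and 0.28 on 9.

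**Figure D5:**
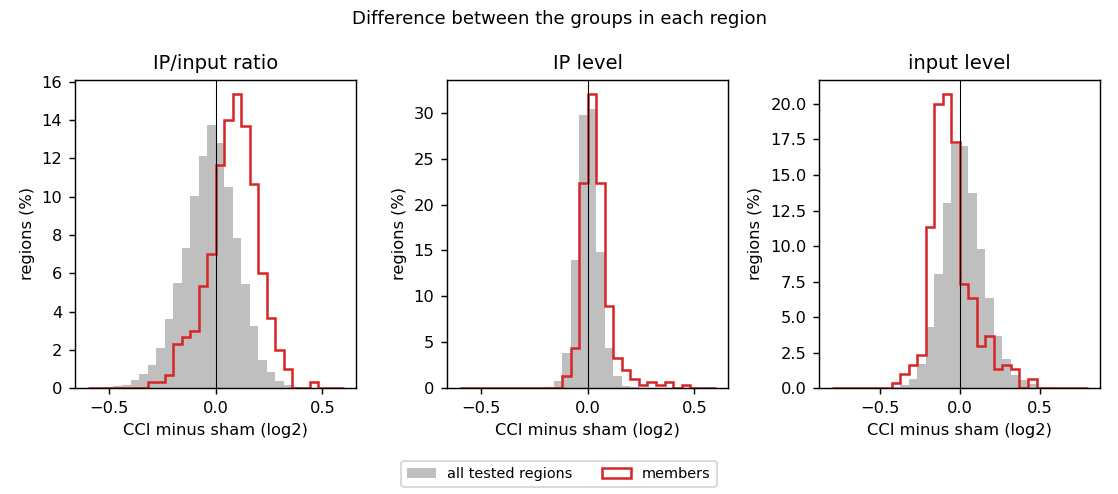
Distribution of the difference CCI minus sham (horizontal, log2) in the ratio, the IP level and the input level, as the percentage of regions (vertical) for all 16023 tested regions (grey) and the 300 members (red outline). The members are displaced to the right in the ratio, with medians of 0.09 against -0.02, and to the left in the input, with -0.07 against 0.01; the IP is displaced least, with 0.03 against 0.00.

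The members with the lowest unadjusted p are given as values, since none was called. In the ratio the foremost was chr18:16240587-16244084, the high-input region of the chromosome 18 pair. Its ratio was -3.33, -3.64 and -3.40 in sham and -3.03, -3.10 and -2.89 in CCI, and its IP was 0.96, 0.90 and 1.14 in sham and 1.23, 1.32 and 1.60 in CCI. The groups did not overlap in either measure, and the ratio differed by 0.45 ± 0.13 (SE, limma, adjusted p = 1.00). The difference kept its sign under each of the 20 alternatives run, but fell to 0.086 with normexp and to 0.28 with scale normalisation. The next were chr3:133733601-133733962, with a ratio difference of 0.33, and chr5:152101693-152102396, also with 0.33. With normexp these came to 0.12 and 0.071, with loess to 0.16 and 0.20, and the second was 0.22 without Sham 1. The ones lower in CCI, chr1:206648062-206649483 at -0.24, chr5:154829692-154831459 at -0.17 and chr9:971222-972942 at -0.30, are set against group SDs of up to 0.26, 0.07 and 0.45. The first and second of these turned sign under other settings. The first was -0.16 without Sham 1, -0.13 without CCI 1 and -0.38 without CCI 3, and the last -0.042 without Sham 1, -0.082 without CCI 2, -0.47 without Sham 2 and -0.53 without CCI 1.

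In the IP the foremost was chr5:78219259-78220789, inside the chromosome 5 stretch. Its IP was -0.41, -0.36 and -0.35 in sham and -0.22, -0.19 and -0.19 in CCI, with no overlap, a difference of 0.17 ± 0.03 (SE, limma, adjusted p = 0.302). Its input was 2.19, 2.63 and 2.44 in sham and 2.44, 2.57 and 2.75 in CCI, so those groups overlapped. The next were chr1:238891174-238892536 with 0.18 and chr7:18853928-18855647 with 0.16, the latter in the chromosome 7 pair. The ones lower in CCI were chr5:136716868-136717401 at -0.11, chr16:74486478-74486826 and chr5:122030415-122031503, both at -0.09.

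In the input, chr10:83695679-83696284 was the foremost of the regions lower in CCI. It measured 2.52, 2.35 and 2.10 in sham and 2.03, 1.84 and 1.93 in CCI, without overlap, a difference of -0.39 ± 0.14 (SE, limma, adjusted p = 1.00). It was followed by chr5:169408177-169409776 at -0.30 and chr6:136602418-136604111 at -0.34. The regions higher in CCI were chr15:5597810-5599249 and chr15:5550212-5551768, each by 0.43, and chr9:833612-835226, by 0.29. All 3 lay in stretches, and in each the groups overlapped.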

How the data were processed

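Genomic DNA from the lumbar cord of 6 rats was hybridised as IP (Cy5) and input (Cy3) to 6 two-colour promoter arrays designed on the rat build rn4. Per the file headers, the deposited signal intensity was made with Agilent Feature Extraction 11.0.1.1 by background subtraction, spatial detrending and a linear factor for each dye, with dim spots set to a floor. The deposited log10 ratio agreed to 0.0001 with one recomputed here in 84.2% to 96.4% of probes, depending on the array; elsewhere it was set to 0, so it was not used. From the processed signals of 172669 probes (6856 control spots left out), log2 levels and ratios were computed as described in the report. Probes with an outlier flag on any array (656) were left out on all arrays. They were kept in the ranking, in shares of probes or spots and in the spread over probes.

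Regions were compared between CCI and sham with limma 3.58.1 in R 4.3.3, with Benjamini-Hochberg adjustment over 16023 regions. The procedure was tested on simulated data. Deviations of same-numbered rats correlated at 0.16, 0.23 and 0.01, and those of differently numbered rats at -0.33 to 0.19. These values do not settle whether the numbers mark pairs. Rats were not treated as paired in the main fit, and the replicate block was run as an alternative. The labels say that the arrays are of separate rats. Regions were named by a rule: the 10 highest inputs, the 8 largest runs, the 5 highest and 5 lowest IP levels, the 3 lowest p-values in each direction and channel, the 3 most variable inputs, and the 3 on either side of the threshold; others are marked as singled out. The members and lists were chosen with earlier results of these data known. Gene names and sequences were not used here. Alternatives covered background correction, normalisation, centring, dim probes, outlier spots, probe averaging, merging distance, number of members, scan, replicate number and each animal left out.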

Additional observations from a re-analysis of the deposited data

How the results depend on the processing

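The count of called regions stayed at 0 for the ratio and the input under every alternative run, replicate block included (0 regions in the ratio, 513 at an unadjusted p under 0.05, and 564 with medians of probes of the same length subtracted). For the IP it was 0 except with the scan as a block (90), on scan 1 alone (38), with bright probes (10) and with outlier spots left out on their own array only (1), an alternative chosen after seeing the data. The causes were not tested. The members' median difference in ratio, 0.09, became 0.16 with the scan as a block and on scan 1 alone, -0.023 with normexp, 0.020 with loess, 0.045 with quantile normalisation, 0.042 with probes bright in the input and 0.041 with probes bright in both channels. It ran from 0.047 to 0.122 with each rat left out, lowest without CCI 3 and highest without CCI 2. At chr1:206648062-206649483 the difference turned to 0.046 with the scan as a block and on scan 1 alone, and to 0.016 with the median of probes. At chr5:154829692-154831459 it turned to 0.048 with the median of probes, 0.049 with probes bright in the input and 0.051 with probes bright in both channels. The cause was not tested.

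Of the 300 members 188 were ranked as members by the median of probes, 200 with array medians, 214 with normexp input and 241 with merging at 500 bp, and the 100 highest regions are 100 of them by construction. Rankings on sham alone and on CCI alone shared 268. The number of members in runs, 151, was 41 among the 100 highest and 376 among the 600 highest. The median IP, 1.36, was 1.20 with array medians in the ranking, 1.22 with the median of probes, 1.43 and 1.33 with merging at 500 and 2000 bp, 1.21 with normexp input, 1.24 for the 600 highest, 1.31 for sham arrays only, and 1.33 to 1.36 with each rat left out. The median ratio, -0.30, was -0.066 with array medians, -0.17 with the median of probes, -0.24 with normexp input, -0.71 for the 100 highest and -0.23 for the 600 highest. All other alternatives run moved these medians by less than the spread between rats and these counts by no more than 1.5 times. Dim input, with as few as 62156 of 172669 probes above background, limits the input levels and the ratios. Dim IP spots limit the ratios in the stretches on chromosomes 15, 9 and 1. Scan and group are partly confounded, since no sham rat is in scan 2.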
